A study of Mus musculus with 6 samples.

Results

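The tripartite motif (TRIM) genes encode ubiquitin ligases and related proteins, and here they were followed in mouse macrophage-lineage cells exposed to neutrophil extracellular traps (NETs, the DNA and granule protein that neutrophils shed). Members were chosen by symbol, Trim followed by a number and at most 1 letter, without Trim30a, and selected on their measured counts: a member had at least 10 counts in 3 or more of the 6 libraries. Of 67 such symbols among the 55401 genes of the table, 40 met this threshold. The count threshold ignores which group a library belongs to. As each group has 3 libraries, it can still admit a scarce gene mainly through 1 group. Trim30d reached 10 counts in 3 untreated and 1 NETs-treated library, and Trim72 in 1 and 3.

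A TRIM protein is built from a RING finger, which brings a ubiquitin-loaded E2 enzyme to a substrate, 1 or more B-boxes, and a coiled coil through which it pairs. The region behind the coiled coil differs between family members and sets what they bind: a PRY-SPRY domain in most, a PHD finger and bromodomain in the nuclear ones, NHL repeats, a MATH domain, an ARF domain or a transmembrane anchor in others. In macrophages the family is best known for tuning the sensing of viral nucleic acids and NF-kB signalling, and several members are themselves induced by interferon.

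The series holds 3 libraries of NETs-treated cells and 3 of untreated cells, here called control. All are labelled wild type and BMDM, bone marrow-derived macrophages, while the titles carry BV2, the name of a mouse microglial line. The labels used here state neither the NETs dose nor the exposure time. They do not say whether libraries come from separate animals or cultures either, so p-values measure only the spread between these libraries, which may be technical.

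Total counts ran from 39994613 to 44274445 per library. The macrophage genes Adgre1 (239 ± 0.818 CPM in control, SD, n = 3; CPM, counts scaled to library size as edgeR does), Csf1r (178 ± 8.97 CPM) and Itgam (764 ± 5.84 CPM) were well expressed. The microglial factor gene Sall1 had no count in any library, P2ry12 stood at 0.878 ± 0.195 CPM in control, and Tmem119 at 1.44 ± 0.562 CPM. Of 12 neutrophil genes, 6 (Ly6g, Mpo, Ltf, Ngp, Retnlg and S100a9) had no count in any library, and the list summed to 11.8 to 13.5 CPM in the control and 10.4 to 16.9 CPM in the treated libraries. Within it S100a8 rose from 2.68 ± 0.591 to 11.7 ± 2.67 CPM, while Csf3r fell from 6.21 ± 1.80 to 0.127 ± 0.142 CPM and Cxcr2 from 1.60 ± 0.220 to 0.809 ± 0.1853 CPM. Fibroblast genes summed to at most 0.0930 CPM. Markers also moved between the groups: Adgre1 stood at 187 ± 21.7 and Csf1r at 87.1 ± 1.57 CPM in NETs-treated cells. Of 10 macrophage genes 7 fell, 2 rose (Cd14 and Lyz2) and 1 was not called, where 27.2% of all genes fell and 25.5% rose. Cd14, the lipopolysaccharide co-receptor gene, went from 691 ± 6.08 to 5442 ± 85.7 CPM; the other 9 together had 5116 to 5278 CPM in control and 4978 to 5169 CPM with NETs. Their part in the TRIM results was not tested.

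The question addressed was which TRIM transcripts change in cells given NETs. The clearest rise in absolute terms was that of Trim25, the ligase that modifies the viral RNA sensor RIG-I, which went from 226 ± 11.6 to 442 ± 17.6 CPM (SD, n = 3 per group). Trim13, a ligase anchored in the endoplasmic reticulum, rose by a similar factor from a far lower level. The falls were steeper: Trim46, Trim29, Trim63, Trim21, Trim45 and Trim24 were all lower by at least 2-fold, and no TRIM gene passed the test with a 2-fold rise. As these are bulk samples, fewer cells of a type and less RNA per cell cannot be told apart.

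Of the 40 members, 39 passed the filter on low counts and were tested, all but Trim69. Of these, 6 were called higher and 11 lower (quasi-likelihood test of edgeR, with p-values adjusted by Benjamini-Hochberg over all genes tested and a threshold of 0.05, n = 3 per group). Together the called members make 43.6% of the tested TRIM genes, against 52.7% of all 15272 tested genes. By direction, 15.4% of the TRIM genes were higher where 25.5% of all genes were, and 28.2% were lower where 27.2% of all genes were. A call with at least a 2-fold change was made for 15.4% of the TRIM genes and 19.3% of all genes. All 6 of these were falls: 0 of the 39 rose 2-fold, against 7.39% of all genes, and 15.4% fell 2-fold, against 11.9% of all genes. The 0 is close to the threshold, since Trim13 (1.96-fold) and Trim25 (1.95-fold) passed 2-fold under 3 and 2 of the 17 alternatives. Groups did not overlap for 59.0% of the TRIM genes and 62.4% of all genes. The median log2 fold change was -0.06 over the TRIM genes and -0.02 over all genes. The share of TRIM genes called higher lay below the background, and the share called lower near it.

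**Figure D1:**
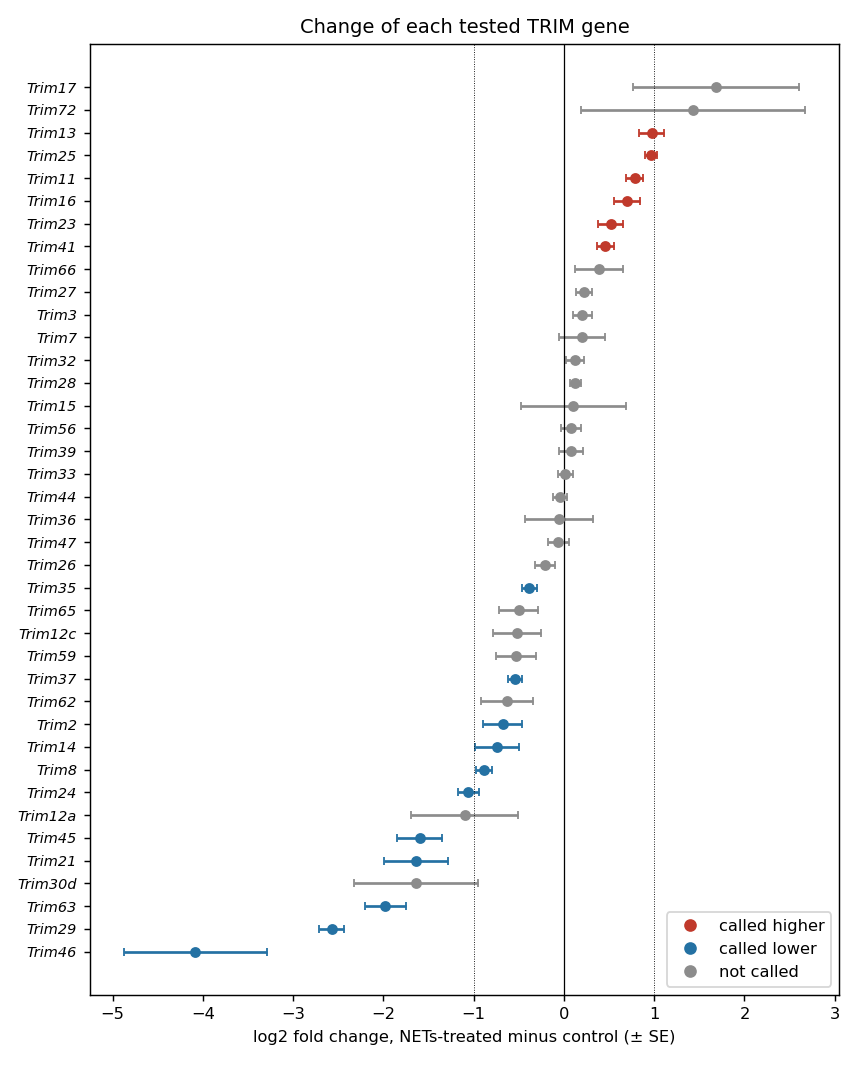
Log2 fold change (NETs-treated minus control) of each of the 39 tested TRIM genes on the x axis, with bars of 1 SE, sorted by value; colour marks whether the gene was called higher, called lower or not called, and dotted lines mark a 2-fold change. The 6 called rises all lie below 1 on the log2 scale, while Trim46 reaches -4.09; the widest bars belong to Trim72, Trim17, Trim46 and Trim30d.

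Levels were compared between genes as mean CPM per kilobase of annotated exon. In control cells the order was led by Trim28 at 56.2 ± 1.66 CPM per kilobase (SD, n = 3), followed by Trim35 at 52.4 ± 0.814, Trim8 at 40.7 ± 2.48, Trim25 at 39.3 ± 2.01 and Trim44 at 22.5 ± 0.610. Trim8 and Trim25 stood within their spread of each other there. In NETs-treated cells Trim25 led with 76.7 ± 3.06 CPM per kilobase, ahead of Trim28 with 61.2 ± 1.80 and Trim35 with 40.1 ± 4.20. Trim8 and Trim44 followed at 22.0 ± 2.13 and 21.9 ± 1.78, again within their spread. Of the 40 members, 7 reached 100 CPM in the higher of the group means, 17 lay between 10 and 100 CPM, 10 between 1 and 10 CPM, and 6 below 1 CPM.

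Summed over the 40 members, the level was 1772 ± 29.6 CPM in control and 1857 ± 38.2 CPM in NETs-treated cells (SD, n = 3) with TMM scaling, and the groups did not overlap. As a share of all counts, without that scaling, the groups overlapped, at 0.1785% to 0.1851% in control and 0.1776% to 0.1860% with NETs. Without Trim25 the sum was lower with NETs on both scales, at 1546 ± 21.4 against 1416 ± 25.7 CPM and at 0.156% to 0.160% against 0.135% to 0.142% of all counts. Trim25 had the largest rise in CPM, so its omission favours a lower sum with NETs. The largest falls in CPM were those of Trim8, from 151 ± 9.18 to 81.5 ± 7.91, and Trim35, from 242 ± 3.76 to 185 ± 19.4. Of the 39 tested members, 6 were called higher, 11 lower and 22 were not called. Trim25 made up 12.8% ± 0.491 of the summed TRIM level in control and 23.8% ± 0.619 in NETs-treated cells.

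**Figure D2:**
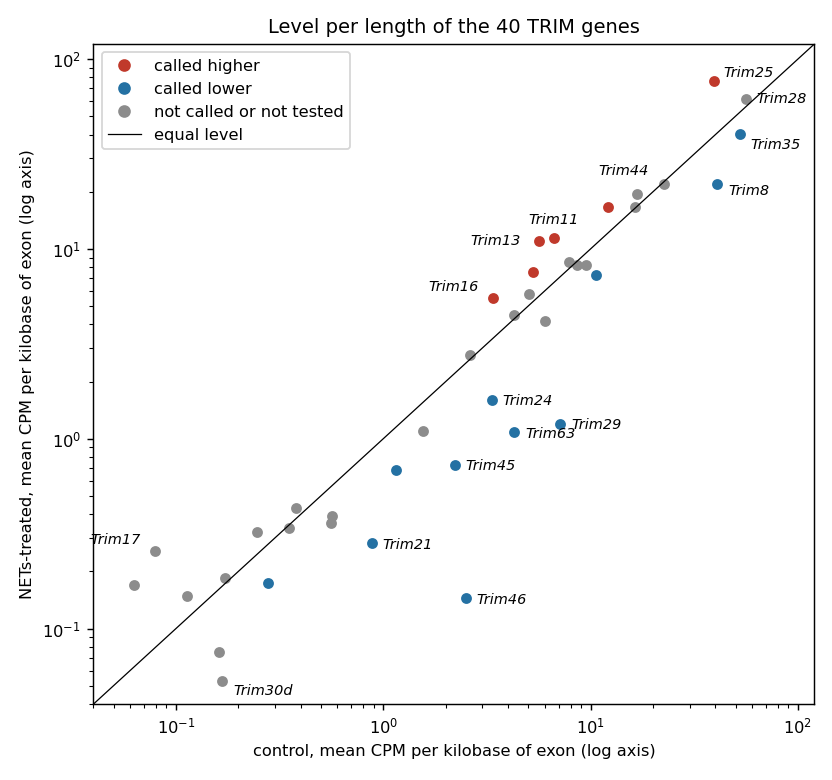
Mean CPM per kilobase of exon in control (x axis, log scale) against NETs-treated cells (y axis, log scale) for the 40 TRIM genes; points are genes, coloured by call, and the line marks equal levels. Trim25 (39.3 and 76.7 CPM per kilobase) lies above the line among the most abundant members, and Trim46 (2.50 and 0.145) lies farthest below it.

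The PRY-SPRY ligases are the largest class, with 18 tested members, of which 3 were higher, 2 lower and 13 not called, so that 27.8% were called against 52.7% of all genes. Many of these members were scarce. All 5 tested TRIM genes below 1 CPM (Trim12a, Trim15, Trim17, Trim30d and Trim72) belong to this class, and 14.0% of all genes at that level were called. Trim7, Trim12c, Trim21, Trim62 and Trim65 lay between 1 and 10 CPM, where 43.7% of all genes were. Trim25, which attaches ubiquitin chains to RIG-I and thereby promotes its signalling, had 240, 219 and 220 CPM in control, against 421, 449 and 454 CPM with NETs. All NETs-treated libraries lay far above all control libraries. Its log2 fold change was 0.96 ± 0.07 (SE; edgeR adjusted p = 8.26e-06). Trim25 (ENSMUSG00000000275.16) lies on chromosome 11 from 88999376 to 89020293 in GRCm38.

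Trim11, a ligase linked to protein quality control and to restraint of interferon signalling, had 24.4, 24.9 and 21.8 CPM in control and 42.8, 42.4 and 37.4 CPM in NETs-treated libraries. Its log2 fold change was 0.78 ± 0.10 (SE; edgeR adjusted p = 0.000199), with groups far apart. Trim41, whose protein has been linked to antiviral defence in the cell and nucleus, rose more modestly, from 42.4 ± 2.53 to 58.2 ± 5.95 CPM (log2 fold change 0.46 ± 0.10). NETs-treated replicate 3 was the lowest of its group at 51.4 CPM, still above the highest control library at 45.3 CPM. Of the Trim41 exon bases 0.883% lie antisense to Rack1, which rose from 1541 ± 13.5 to 1951 ± 57.7 CPM. The part of Rack1 reads in the Trim41 counts was not tested.

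Trim21 encodes the cytosolic antibody receptor that sends antibody-coated particles to the proteasome. It had 3.47, 3.32 and 3.02 CPM in control, against 1.18, 1.40 and 0.562 CPM with NETs, 3.13-fold lower in the mean. The groups were apart, with NETs-treated replicate 3 the lowest, and the log2 fold change was -1.64 ± 0.35 (SE; edgeR adjusted p = 0.00456). Trim21 (ENSMUSG00000030966.13) spans 102557921 to 102565486 on chromosome 7. Trim35, an abundant ligase reported to act on IRF7 and on the glycolytic enzyme PKM2, fell only by 0.38 on the log2 scale, from 242 ± 3.76 to 185 ± 19.4 CPM, with NETs-treated replicate 3 the highest of its group at 207 CPM.

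The other PRY-SPRY members did not pass the test. Trim27, a regulator of NF-kB and of endosomal recycling, stood at 92.5 ± 5.28 and 108 ± 10.6 CPM, with groups that did not overlap (edgeR adjusted p = 0.071). It passed under 5 of 17 alternatives, the replicate block among them (adjusted p = 0.0275). Trim26, a ligase reported to degrade nuclear IRF3, had 65.6 ± 3.11 and 56.7 ± 9.12 CPM; without NETs-treated replicate 1 it was called lower (adjusted p = 0.0113). Trim65, which modifies the RNA sensor MDA5, had 4.96, 5.79 and 8.71 CPM in NETs-treated libraries against 8.93, 9.93 and 8.68 CPM in control. NETs-treated replicate 3 thus lay inside the control range, and without it the gene was called lower with a log2 fold change of -0.76 (adjusted p = 0.00549). Trim39 and Trim47 differed by less than 0.1 on the log2 scale.

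Trim17 and Trim72 had positive fold changes of 1.68 ± 0.92 and 1.43 ± 1.24 (log2, SE) that did not pass. Trim17, a gene known best from neurons, had 23, 0 and 16 counts in control and 34, 31 and 51 counts in NETs-treated libraries. It shares 19.0% of its exon bases with the histone gene H2aw on the same strand, which stood at 1.97 ± 0.0643 and 1.64 ± 0.953 CPM. It shares 5.06% with the antisense gene 2310058D17Rik, which rose from 1.92 ± 0.192 to 3.68 ± 0.398 CPM. The part of reads from these genes in the Trim17 counts was not tested. Trim72, the membrane repair gene of muscle, had 18, 0 and 0 counts against 13, 20 and 13, and 27.6% of its exon bases lie over the antisense gene Gm15533, which rose from 0.0220 ± 0.0382 to 0.414 ± 0.158 CPM. Trim72 passed in limma-voom (adjusted p = 0.0444) and without control replicate 1 (0.0119), where both remaining control libraries are at 0.

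On chromosome 7, 9 of the symbols (Trim6, Trim34a, Trim5, Trim12a, Trim34b, Trim12c, Trim30b, Trim30c and Trim30d) follow each other with gaps of at most 14004 bases, interrupted only by Trim30a. This cluster holds the mouse relatives of the retroviral restriction factor TRIM5. Only Trim12a, Trim12c and Trim30d met the count threshold, all below 3 CPM. Trim12c had 1.98, 2.11 and 2.23 CPM in control, against 1.34, 1.42 and 1.63 CPM with NETs, without overlap, yet it did not pass (edgeR adjusted p = 0.129). Trim30d had 35, 31 and 16 counts against 5, 4 and 15, and Trim12a 15, 47 and 62 counts against 20, 11 and 22; in both genes the groups overlapped, and Trim30d was called lower without NETs-treated replicate 3 (adjusted p = 0.0244). Reads of related copies in such a cluster may be split between them, which was not tested, so the values of these 3 genes are uncertain.

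The promoters of the members were searched because members known as interferon-induced were among both the rises and the falls. RefSeq promoters in GRCm38.p6, from 250 bases before to 50 after each start, were at hand for 29 of the 40 members. The core of the interferon-stimulated response element (ISRE), GAAA, then 2 bases of any kind, then GAAA, on either strand, occurred in 6 of these 29 genes, or 20.7%, and in 3.99% of all 27025 genes with such a promoter. The matches are shown with the ISRE core in capitals, each read 5′ to 3′ on the strand of its gene, as 60 bases where the match lies before the start and as 30 bases where it lies behind it.
Trim21 (chr7:102565447-102565476, minus strand): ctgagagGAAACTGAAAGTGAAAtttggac
Trim12a (chr7:104315466-104315495, minus strand): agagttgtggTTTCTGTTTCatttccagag
Trim12c (chr7:104353350-104353409, minus strand): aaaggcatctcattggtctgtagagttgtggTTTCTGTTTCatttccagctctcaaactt
Trim30d (chr7:104507856-104507915, minus strand): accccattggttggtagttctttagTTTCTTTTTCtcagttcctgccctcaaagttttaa
Trim26 (chr17:36836964-36837023, plus strand): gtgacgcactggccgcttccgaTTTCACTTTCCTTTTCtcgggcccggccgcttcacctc
Trim2 (chr3:84212791-84212820, minus strand): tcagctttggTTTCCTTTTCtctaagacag

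Trim21 and Trim26 carry a pair of overlapping matches, and Trim12a and Trim12c share the same letters around theirs. As Trim12a, Trim12c and Trim30d lie in the same chromosome 7 cluster, the 6 genes may not be independent occurrences. In Trim2 the match lies at 1 of 5 RefSeq starts. All 6 genes had a negative log2 fold change: -1.64 for Trim21, -1.64 for Trim30d, -1.10 for Trim12a, -0.68 for Trim2, -0.52 for Trim12c and -0.21 for Trim26. The median over all tested TRIM genes was negative too, at -0.06. Only Trim21 and Trim2 passed the test, where 43.6% of all tested TRIM genes did. The values of Trim12a, Trim12c and Trim30d are uncertain, and whether the matches bear on the changes was not tested. The promoter of Trim25, which rose, held no match to these letters. A kappaB core, GGG, then 2 bases of any kind, then TTTCC, on either strand, occurred in 0 of the 29 genes and in 1.89% of all genes, and the GAS core TTCNNNGAA in 3 of the 29 (Trim15, Trim45 and Trim46) and in 9.55% of all genes. A match describes the sequence and does not show that a factor binds there.

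Trim13 and Trim59 are the members with a transmembrane anchor. Trim13, which takes part in degradation at the endoplasmic reticulum and in its autophagy, went from 9.63, 9.88 and 8.31 CPM in control to 16.1, 18.1 and 20.3 CPM in NETs-treated libraries. The groups were well apart, and the log2 fold change of 0.97 ± 0.14 (SE; edgeR adjusted p = 0.000434) was the largest among the called rises. Trim13 (ENSMUSG00000035235.13) spans 61598247 to 61605946 on chromosome 14. Trim59 had 16.98, 23.6 and 20.1 CPM in control and 9.55, 17.4 and 14.97 CPM in NETs-treated libraries, and the groups overlapped. It missed the threshold (log2 fold change -0.53 ± 0.22, adjusted p = 0.0716) but was called lower under 7 of 17 alternatives, among them the authors' deposited table (adjusted p = 0.0307), DESeq2 (0.04) and the replicate block (0.0102).

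Trim23, whose ARF domain binds GTP and which serves antiviral autophagy, rose from 28.5, 29.7 and 32.6 to 35.7, 41.6 and 52.8 CPM. The NETs-treated values were spread widely but stayed above the control values. Its log2 fold change was 0.52 ± 0.14 (edgeR adjusted p = 0.0139), and the call was lost without control replicate 1 (0.0587) or control replicate 2 (0.051) and with correction for GC content, where the fold change was 0.18 (0.0709).

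Trim8, which promotes NF-kB activation by TNF and interleukin-1, had 161, 143 and 149 CPM in control, against 90.6, 77.4 and 76.5 CPM with NETs. Every NETs-treated value was far below every control value, with a log2 fold change of -0.89 ± 0.09 (SE; edgeR adjusted p = 6.78e-05). Trim8 (ENSMUSG00000025034.9) spans 46501702 to 46516848 on chromosome 19. Trim56, a ligase linked to STING and cGAS that like Trim8 has no PRY-SPRY domain, stood at 39.5 ± 3.57 and 41.7 ± 4.37 CPM and did not pass.

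Trim45, which ends in a filamin domain without NHL repeats and is a reported brake on NF-kB, had 14.2, 15.2 and 10.5 CPM in control and 5.86, 4.17 and 3.14 CPM in NETs-treated libraries. The mean was 3.03-fold lower and the groups did not overlap (log2 fold change -1.60 ± 0.25, edgeR adjusted p = 0.000783). The gene (ENSMUSG00000033233.17) spans 100922202 to 100936920 on chromosome 3. Trim37, the MATH-domain ligase that acts at centrosomes and peroxisomes, fell from 76.4 ± 5.47 to 52.4 ± 1.76 CPM (log2 fold change -0.54 ± 0.08).

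The nuclear class with a PHD finger and bromodomain had 4 tested members, of which only Trim24 was called. That is 25%, against 52.7% of all genes. Trim24, a chromatin reader that acts as a coregulator of nuclear receptors, went from 28.9, 27.9 and 28.7 to 11.7, 14.7 and 14.6 CPM. The control values lay close together and no NETs-treated value came near them; the mean was 2.09-fold lower (log2 fold change -1.06 ± 0.12, edgeR adjusted p = 0.000113). The gene (ENSMUSG00000029833.17) spans 37870811 to 37966296 on chromosome 6.

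Trim28, also named KAP1, is the corepressor through which KRAB zinc finger proteins silence retroelements. It had 236, 239 and 226 CPM in control, against 256, 246 and 261 CPM with NETs. The groups did not overlap, but the log2 fold change of 0.12 ± 0.06 did not pass (edgeR adjusted p = 0.115). It was called higher with a filter of 1 CPM in 3 samples (log2 fold change 0.16, adjusted p = 0.0489) and, with correction for GC content, with a log2 fold change of 0.32 (adjusted p = 0.00677). Trim33, a partner of SMAD proteins that shapes macrophage enhancers, was at 161 ± 7.86 and 162 ± 15.8 CPM, and Trim66 at 2.48 ± 0.442 and 3.25 ± 0.765 CPM.

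Among the members without a RING finger, Trim29 fell most. Its protein has been described as a restraint on innate immune activation in airway macrophages. It had 24.5, 25.2 and 24.7 CPM in control and 4.73, 4.27 and 3.50 CPM in NETs-treated libraries, 5.96-fold lower in the mean. The values within each group were close together, and the log2 fold change of -2.57 ± 0.14 (SE) had the smallest adjusted p of all members (2.51e-06 in edgeR). Trim29 (ENSMUSG00000032013.6) spans 43310848 to 43336115 on chromosome 9.

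Trim14, an adaptor of the antiviral protein MAVS, had 4.67, 4.48 and 5.77 CPM in control and 3.22, 2.14 and 3.55 CPM in NETs-treated libraries. Its log2 fold change of -0.74 ± 0.25 passed narrowly (edgeR adjusted p = 0.0334). The call was lost without control replicate 1, 2 or 3 (0.0641, 0.0547 and 0.121), without NETs-treated replicate 2 (0.0969) and with no filter on low counts (0.0558). Of its exon bases 31.3% lie antisense to Nans, which itself fell from 34.8 ± 1.72 to 24.7 ± 6.23 CPM; the strand setting of the counting is not given in the sources used here, and the part of Nans reads in the Trim14 counts was not tested.

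Trim16, which is recruited to damaged lysosomes, rose from 19.0, 14.1 and 13.5 to 26.5, 23.7 and 25.2 CPM. Control replicate 1 was the highest of its group and still below the NETs-treated libraries (log2 fold change 0.70 ± 0.15, edgeR adjusted p = 0.00381). Fbxw10, which covers 5.19% of its exon bases on the same strand, fell from 1.01 ± 0.0283 to 0.258 ± 0.165 CPM. Trim44, which stabilises other TRIM proteins by removing ubiquitin, stood at 127 ± 3.44 and 124 ± 10.03 CPM with overlapping groups.

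**Figure D3:**
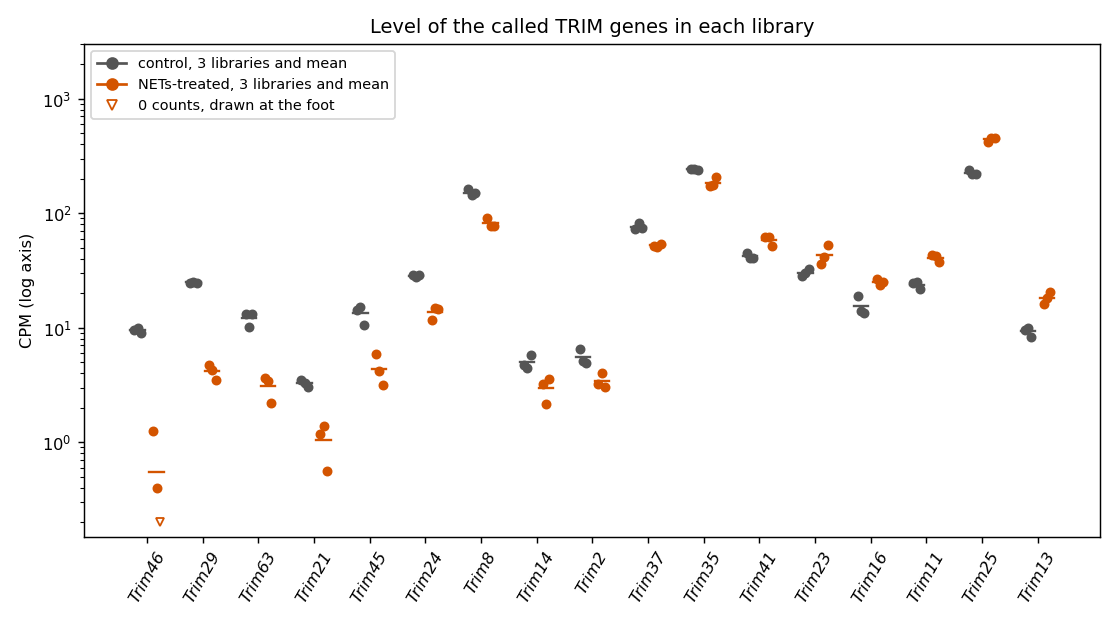
CPM (y axis, log scale) of the 17 called TRIM genes in each of the 6 libraries; points are libraries, short lines are group means (n = 3), and an open triangle marks a library with 0 counts. Within each gene the groups are apart; the NETs-treated libraries of Trim46 (1.25, 0.399 and 0 CPM) and Trim21 (1.18, 1.40 and 0.562 CPM) are spread most widely.

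Several members known from nerve and muscle were also detected. Trim46, which organises parallel microtubules in the proximal axon, had 409, 431 and 406 counts in control and 53, 16 and 0 counts in NETs-treated libraries. The control mean was 9.49 ± 0.528 CPM and the NETs-treated libraries stood at 1.25, 0.399 and 0 CPM. The 0 of NETs-treated replicate 3 allows up to 0.0766 CPM for counting error alone. The log2 fold change was -4.09 ± 0.79 (SE; edgeR adjusted p = 0.00259). It was -5.52 without NETs-treated replicate 1 and -3.51 without NETs-treated replicate 3, and the call held under all 17 alternatives. Trim46 (ENSMUSG00000042766.17) spans 89234177 to 89246309 on chromosome 3, and 6.30% of its exon bases lie antisense to Krtcap2, which stood at 117 ± 4.77 and 123 ± 4.51 CPM. Its relative Trim36 was at 1.73 ± 0.636 and 1.67 ± 0.411 CPM.

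Trim63 encodes MuRF1, the muscle ligase of sarcomere breakdown. It had 13.3, 10.2 and 13.1 CPM in control and 3.62, 3.42 and 2.20 CPM in NETs-treated libraries, 3.95-fold lower in the mean and without overlap (log2 fold change -1.98 ± 0.23, edgeR adjusted p = 0.000136). The gene (ENSMUSG00000028834.13) spans 134315120 to 134329629 on chromosome 4. The other muscle RING finger genes, Trim54 and Trim55, had 0 counts in all libraries, which allows up to 0.0228 CPM in the control and 0.0246 CPM in the NETs-treated group.

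Of the members with NHL repeats, Trim2, a ligase of neurofilament light chain, had 6.53, 5.10 and 4.87 CPM in control and 3.25, 4.04 and 3.01 CPM in NETs-treated libraries. Its call (log2 fold change -0.68 ± 0.22, edgeR adjusted p = 0.0268) was lost without control replicate 1 (0.101), control replicate 2 (0.0506), NETs-treated replicate 1 (0.0576) or NETs-treated replicate 3 (0.0632). Trim3 and Trim32, a neuronal and a muscle-linked ligase, had 23.0 ± 0.361 and 25.3 ± 0.700 CPM in control, against 26.4 ± 3.01 and 27.6 ± 2.88 CPM with NETs, and did not pass.

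Some members are neighbours on chromosome 11. Trim17 and Trim11 lie 4994 bases apart, with log2 fold changes of 1.68 ± 0.92 and 0.78 ± 0.10, and only Trim11 passed. Trim41 and Trim7 lie 8786 bases apart, with 0.46 ± 0.10 and 0.20 ± 0.25, and only Trim41 passed; Trim7 stood at 2.87 ± 0.670 and 3.29 ± 0.415 CPM. Differences between neighbours were not tested. Trim47 and Trim65 share 225 exon bases on the same strand, so a small share of their reads may be exchanged.

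Calls were fewest among the scarce members. Of the 5 tested members below 1 CPM none was called, of 10 between 1 and 10 CPM 4 were, of 17 between 10 and 100 CPM 10 were, and of 7 above 100 CPM 3 were. Over all genes the shares called in these ranges were 14.0%, 43.7%, 62.5% and 71.0%. Among the 20 members with at least 10 CPM in both groups, the coefficient of variation between replicates had a median of 5.83% in control and 10.05% in NETs-treated cells.

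Just inside the count threshold were Trim69 (9, 9 and 10 counts in control and 10, 7 and 17 in NETs-treated libraries), Trim30d and Trim72. Just outside were Trim38 (10, 9 and 4 against 7, 0 and 4 counts), Trim43a (4, 0 and 0 against 4, 8 and 15) and Trim75 (0, 0 and 0 against 0, 11 and 0). No member reached 10 counts in the libraries of 1 group only. Of the 27 symbols that were not members, 19 had no count in any library and 8 had a few.

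The genes that TRIM ligases work with were described from lists drawn up by role. Of the 4 tested TRIM family genes that go by other symbols, 1 was called, or 25%, against 52.7% of all genes. It was Mid2, a microtubule-associated ligase, which rose from 22.8 ± 1.09 to 33.9 ± 5.03 CPM (log2 fold change 0.57, edgeR adjusted p = 0.004). Pml, the organiser of nuclear bodies, was at 40.7 ± 4.04 and 38.2 ± 4.19 CPM. Mefv, the gene of pyrin, had 0 counts. Without control replicate 3, 2 genes of this list rose.

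Among ubiquitin genes and the E1 and E2 enzymes, 5 of 16 rose and 3 fell. The 50% called lay near the 52.7% of all genes. Their median log2 fold change was 0.00. Ube2n, the E2 that builds K63-linked chains, rose from 48.0 ± 3.73 to 82.5 ± 1.81 CPM, and Ube2d1, an E2 used by many RING ligases, had a log2 fold change of 0.72 ± 0.12. Ube2e2 fell, with -0.70 ± 0.15. Ube2v1, the partner of Ube2n, had 169 ± 2.87 CPM in control and 147 ± 113 CPM in NETs-treated cells, a spread too wide to judge. The NETs-treated libraries stood at 243, 22.8 and 175 CPM, with replicate 2 far below the others. With any control library left out, 3 members of this list rose; 6 fell with the replicate block, and 5 without NETs-treated replicate 3.

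Of 21 tested antiviral signalling genes, which encode sensors, adaptors and factors that TRIM ligases act on, 11 fell and 7 rose, or 52.4% and 33.3%, where 27.2% and 25.5% of all genes did. Their median log2 fold change was -0.32. Ddx58, the gene of RIG-I and thus of the substrate of Trim25, fell from 26.7 ± 1.91 to 14.5 ± 0.626 CPM (log2 fold change -0.88 ± 0.10, edgeR adjusted p = 0.000154) while Trim25 rose. Usp18, which removes ISG15 from proteins, had -2.97 ± 0.13, and Nmi had -2.41 ± 0.21. The kinase gene Tbk1 rose from 55.8 ± 2.88 to 112 ± 6.50 CPM and the ligase gene Traf6 had 0.50 ± 0.10. Mavs stood at 65.3 ± 1.97 and 65.8 ± 8.31 CPM.

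Of 17 tested partners of Trim28 in gene silencing, 8 rose and 1 fell (2 with GC correction). That is 52.9% called, near the 52.7% of all genes, with 47.1% higher and 5.88% lower against 25.5% and 27.2%. The median of the list was 0.17 on the log2 scale. Hdac1, a histone deacetylase gene, rose from 70.9 ± 6.62 to 133 ± 8.37 CPM, and Cbx1, the gene of heterochromatin protein HP1 beta, from 31.9 ± 0.382 to 55.8 ± 1.17 CPM. Chd3, a helicase of the NuRD complex, fell from 171 ± 8.79 to 98.4 ± 16.9 CPM. The histone methyltransferase gene Setdb1, which Trim28 recruits, was at 120 ± 2.41 and 115 ± 6.01 CPM.

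The list of deubiquitinases and ubiquitin readers also holds the ligase gene Rnf135, which was not called. Of its 10 tested genes, 5 rose and 2 fell, or 50% and 20%, where 25.5% and 27.2% of all genes did. The median stood at 0.16 on the log2 scale. Tnfaip3, the gene of the NF-kB brake A20, rose from 32.1 ± 1.36 to 73.7 ± 1.43 CPM, and Usp15, which removes ubiquitin from TRIM25, from 143 ± 3.59 to 261 ± 12.02 CPM. Sqstm1, the autophagy receptor gene, and Otulin, a deubiquitinase gene for linear chains, fell by 0.28 and 0.25 on the log2 scale. Calls of this list were lost when libraries were left out. With control replicate 2 or NETs-treated replicate 2 left out, 0 members were called lower, and with any other library left out 1 was. Without control replicate 3 the rises numbered 3.

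**Figure D4:**
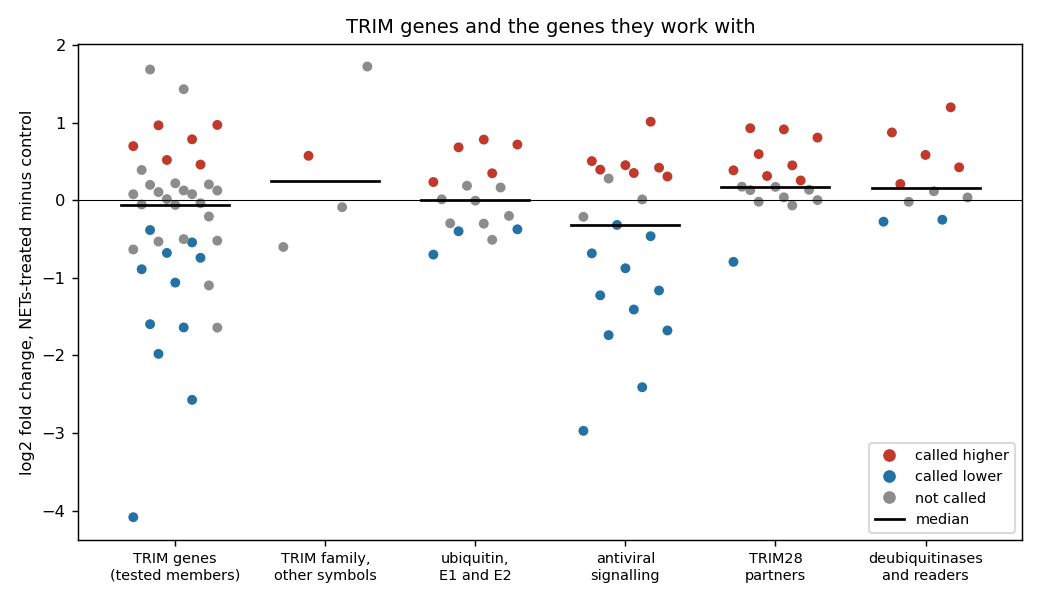
Log2 fold change (NETs-treated minus control, y axis) of the tested TRIM genes and of the tested genes in 5 lists of genes they work with; points are genes, coloured by call, and black lines are medians. The medians are -0.06 for the TRIM genes, 0.24 for family genes with other symbols, 0.00 for ubiquitin, E1 and E2 genes, -0.32 for antiviral signalling, 0.17 for Trim28 partners and 0.16 for deubiquitinases and readers.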

How the data were processed

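Read counts of 3 NETs-treated and 3 control samples were analysed. Per the labels' protocols, total RNA was made into strand-specific libraries; HISAT2 and DESeq2, and the builds mm10 and rn6, appear in the submitters' processing notes, without versions or roles. The authors deposited raw counts, normalised counts (a signal equal to the count divided by 1 size factor per sample), log2 fold changes and p-values, raw and adjusted, in 1 table. How reads were counted, on which strand and against which annotation was not given in the sources used here.

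Counts were tested with edgeR 4.0.16 in R 4.3.3 (quasi-likelihood, TMM scaling, no covariates, two-sided), keeping 15272 genes past the low-count filter (minimum count 10, minimum total 15), with Benjamini-Hochberg adjustment over all of them and a threshold of 0.05. CPM were TMM-scaled. The SE of a fold change came from its F statistic. Library pairs within a group differed by more than sampling noise. Limits from counts of 0 use 3 counts and cover counting error only, as PCR copies were not marked by molecular identifiers. Coordinates and exon lengths came from GENCODE M21 (GRCm38), in which 55141 of 55401 identifiers were found with or without their version. The code was tested on simulated data.

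The members, domain classes, gene lists and markers were chosen with earlier results of these data known. Classes and lists were written from general knowledge of the proteins. Named were all called members with a 2-fold change, the largest rise and fall of each class, the 5 most abundant members per length, those beside the count threshold and, from each list, at most 3 called genes, those that changed most, and at most 2 called against the majority; others named were chosen after their values were seen. For 1 listed gene the values are not reported here. Alternatives were other scalings (DESeq2 1.42.0 size factors, library size, upper quartile), the DESeq2 Wald test, limma-voom (limma 3.58.1), other filters, a replicate block, leaving out each sample, the authors' deposited table and, added after seeing the data, a lowess correction (span 0.3) for transcript GC content.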

Additional observations from a re-analysis of the deposited data

How the results depend on the processing

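The number of TRIM genes called higher was 6 and ranged from 5 to 8 over the 17 alternatives, and the number called lower was 11 and ranged from 9 to 14. Leaving out 1 library gave 5 to 7 higher and 9 to 12 lower. All 17 called genes were also called with the other scalings, DESeq2, limma-voom, the authors' deposited table, the replicate block and the filters of 10 counts or 1 CPM in 3 samples. No called gene changed direction under any alternative. The calls that were lost anywhere were those of Trim14, Trim2 and Trim23. With GC correction, added after seeing the data, 22 genes were called, of which 16 were among the 17; the cause was not tested. Over all genes, 3896 were higher and 4155 lower, and with scaling by library size only 3351 and 4636.

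The replicate numbers of the groups are not stated to mark a shared batch. Deviations from the group means of same-numbered libraries correlated with r = 0.21, 0.03 and 0.08 for numbers 1, 2 and 3 across genes, and not every library correlated best with its own number. With the replicate number as a block, 7 TRIM genes were called higher and 12 lower, and 3896 and 4209 genes over all. Depth limits the members below 1 CPM, where 1 count is worth about 0.0220 to 0.0255 CPM.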
